A study of Equus caballus with 6 samples.

Results

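Smooth muscle contractile genes and genes that tie actin to other structures were followed in lamellar hoof tissue with laminitis and in normal lamellar tissue. The set was named as 10 genes, namely TAGLN, ACTA2, CNN1, MYH11, MYL9, TPM2, DES, FLNC, SYNE1 and KCNJ2. A gene was found through every probe set, a group of short probes read as 1 value, whose only gene symbol in the platform annotation was its own. This gave 13 probe sets for 9 of the 10 genes, among 9155 gene symbols on the array, and every probe set was kept apart. No probe set carried the symbol MYL9, the regulatory light chain of smooth muscle myosin, so it was not analysed here. The genes were put together with laminitis-against-normal results of these arrays known, so their differences between the groups are described and not tested.

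The lamellae are the interleaved folds of epidermis and dermis that hang the coffin bone inside the hoof wall, and laminitis is the disease in which that suspension fails. All samples were horse (Equus caballus) tissue of the right foot, 3 from laminitis (replicates 1, 3 and 4) and 3 from normal tissue (replicates 2, 3 and 4), with 1 array each. Age, breed, sex and the way laminitis arose are not given in the sources used here, nor whether each sample is a separate horse, so spreads between arrays may be technical. The arrays were Affymetrix bovine GeneChips read with horse RNA. A low signal of a bovine probe set therefore does not show a low transcript level, and no gene is ranked against another by signal.

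Smooth muscle cells ring the arteries, veins and arteriovenous shunts of the dermis and set blood flow by contracting. Their contractile filaments pair smooth muscle actin with smooth muscle myosin, calponin and tropomyosin regulate the thin filament, and desmin filaments and actin cross-linkers carry force to the cell surface and to the nucleus. Genes of the contractile apparatus are classic targets of serum response factor with its cofactor myocardin, and their loss marks smooth muscle cells that leave the contractile state.

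The label was checked against the signals first. ACTA2, TAGLN and CNN1, which mark smooth muscle, lay above the array's median on all 6 arrays, where array medians ran from 86.7 to 96.6 on the deposited linear scale. MYH11, the smooth muscle myosin heavy chain and the most specific marker of the set, lay below the median on all 6 arrays. Of 17 other smooth muscle contractile genes on the array, 5 lay below the median on all 6, LMOD1, leiomodin, among them. MYLK and CALD1, of the same 17, lay above it on all 6. Probe sets of several contractile genes thus read above the middle of every array, while that of MYH11 did so on none. With bovine probes this does not show how much transcript of these genes was present.

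Of the 13 probe sets, 9 had a lower mean log2 signal in laminitis (69.2%) and 4 a higher one. Over all 24016 probe sets other than controls, 56.3% had a lower one. The actin cross-linker FLNC, the potassium channel KCNJ2, the nuclear linker SYNE1 and the actin-binding protein TAGLN each had a probe set on which every laminitis array lay below every normal array. The remaining 9 probe sets overlapped between the groups, among them smooth muscle actin, ACTA2. A probe set entered the fit across all features where at least 3 of the 6 arrays read it above their median, which kept 9 of the 13 probe sets, for 7 genes. The 4 probe sets with groups apart are all among these 9, and over all 12519 tested probe sets the share with laminitis below normal on every array was 8.92%. No member kept the groups apart with laminitis higher, against 7.89% of the tested probe sets. Nothing is read from these shares, since the genes were chosen on it.

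Over all tested probe sets, limma with Benjamini-Hochberg adjustment and a threshold of 0.05 called 0 in either direction (0%), so no member passed. At an unadjusted p under 0.05, limma gave 622 probe sets lower (4.97%) and 604 higher (4.82%) of 12519. An ordinary linear model called 0 and limma with an intensity trend and robust variance called 4 probe sets. The median log2 difference over all 13 member probe sets was -0.67, beside -0.066 over all 24016 probe sets other than controls. Without laminitis replicate 3 the member median was -0.30, and without normal replicate 4 it was -0.42.

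**Figure D1:**
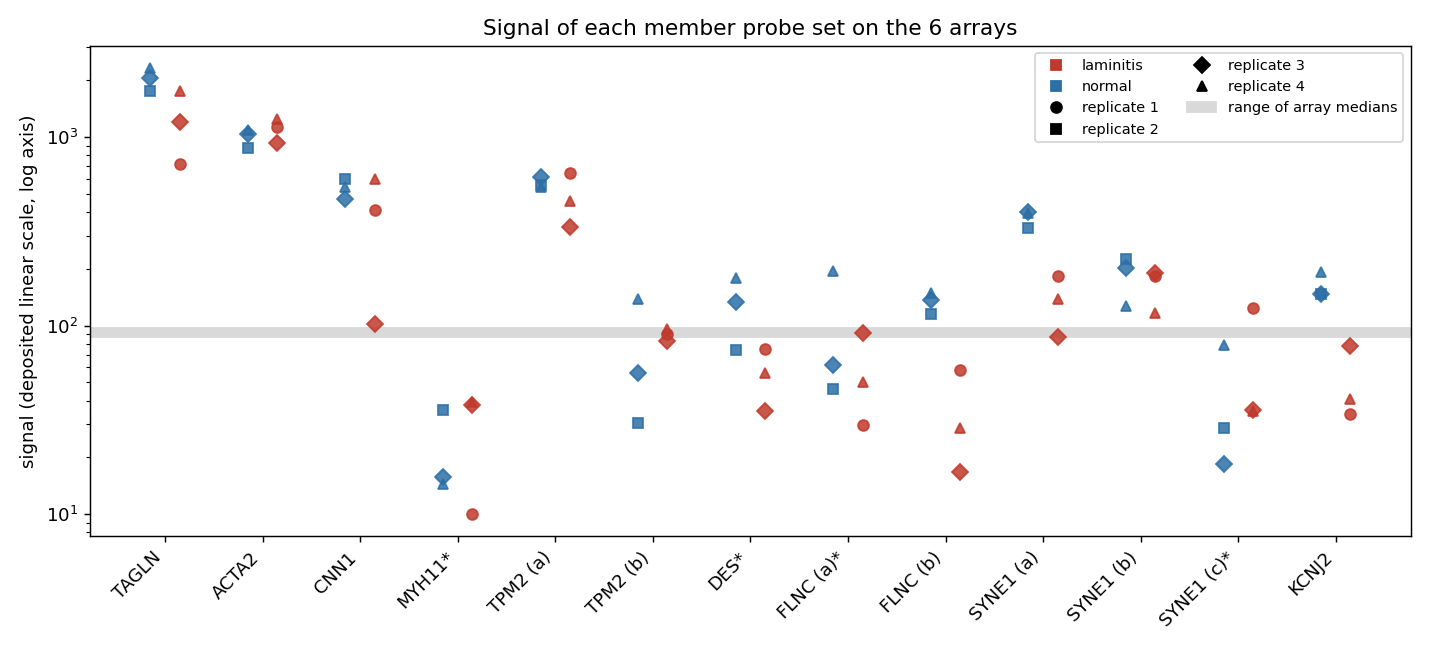
Signal of each of the 13 probe sets (x axis) on the 6 arrays (y axis, deposited linear scale, log axis), 1 point per array, coloured by group and shaped by replicate number. The grey band spans the array medians, a star marks a probe set that was not tested, and letters tell apart probe sets of a gene; in TAGLN, FLNC (b), SYNE1 (a) and KCNJ2 all laminitis points lie below all normal points.

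Smooth muscle actin, ACTA2, forms the thin filament. Its signals (probe set Bt.12825.1.S1_at) were 1128, 926 and 1244 on laminitis replicates 1, 3 and 4 and 879, 1035 and 1090 on normal replicates 2, 3 and 4. The groups overlapped, with the highest value on laminitis replicate 4 and the lowest on normal replicate 2. The log2 difference, laminitis minus normal, was 0.13 ± 0.21 (SE, n = 3 per group), and after quantile normalization it was -0.071, so it has no settled direction. ACTA2 also varied little inside each group, with a highest signal 1.34 times the lowest in laminitis and 1.24 times in normal tissue. Actins share most of their coding sequence, so other actins may add to this signal.

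TAGLN encodes transgelin, a small calponin-family protein that binds actin filaments and is abundant in smooth muscle. Its signals (Bt.16055.2.S1_a_at) were 721, 1203 and 1747 in laminitis and 1767, 2056 and 2322 in normal tissue, in the same order of replicates. The highest laminitis array lay just under the lowest normal array, and the 3 laminitis arrays were spread wider than the normal ones. The mean ± SD was 1224 ± 513 in laminitis and 2048 ± 278 in normal tissue. The log2 difference was -0.83 ± 0.34 (SE), or 56.4% of the normal level, and it ran from -1.13 without laminitis replicate 4 to -0.49 without laminitis replicate 1. With each array centred on its median, the number of member probe sets with groups apart fell from 4 to 3, because TAGLN then overlapped. After quantile normalization that number was 4 and the TAGLN difference was -1.08.

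CNN1 is calponin, an actin-bound brake on myosin in smooth muscle. It read 412, 103 and 599 in laminitis and 602, 469 and 544 in normal tissue (Bt.6630.1.S1_at). A single array, laminitis replicate 3, was low, and laminitis replicate 4 lay level with the normal arrays. The log2 difference was -0.87 ± 0.61 (SE) and was -0.11 without laminitis replicate 3. The normal arrays were close together, with a highest signal 1.28 times the lowest, against 5.84 times in laminitis.

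TPM2 is beta-tropomyosin, which lies along the actin filament and gates myosin binding. Its brighter probe set (Bt.12477.1.S1_a_at) gave 643, 336 and 457 in laminitis and 555, 611 and 542 in normal tissue. The laminitis arrays lay on both sides of the normal ones, and the normal arrays agreed within 1.13 times. The log2 difference was -0.30 ± 0.27 (SE), and it ran from -0.54 without laminitis replicate 1 to -0.069 without laminitis replicate 3. The dimmer TPM2 probe set (Bt.12477.2.S1_at) read 89.8, 83.3 and 96.2 in laminitis and 30.5, 56.0 and 139 in normal tissue. It pointed the other way, at 0.53 ± 0.51 (SE), and here the spread lay in the normal group, where the highest signal was 4.56 times the lowest. It was 0.023 without normal replicate 2 and 1.12 without normal replicate 4. The probe sets of TPM2 thus disagreed in sign, and each difference was smaller than its pooled SD inside the groups, 0.339 and 0.782 on the log2 scale.

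MYH11 is the myosin heavy chain that pulls on smooth muscle actin. It read 10.04, 37.8 and 39.3 in laminitis and 35.5, 15.8 and 14.4 in normal tissue (Bt.12685.1.S1_at). The groups overlapped across the whole range. The log2 difference of 0.29 ± 0.64 (SE) turned to -0.043 without laminitis replicate 4, and MYH11 was not among the tested probe sets.

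DES is desmin, the intermediate filament of muscle cells. Its signals (Bt.6141.1.S1_at) were 75.0, 35.2 and 56.3 in laminitis and 74.2, 133 and 180 in normal tissue. Laminitis replicate 1 and normal replicate 2 were level, while the other two laminitis arrays lay below every normal array. The log2 difference was -1.19 ± 0.44 (SE), with 64 added to every signal before log2 it was -0.67, and DES missed the filter with 2 arrays above the median.

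FLNC is filamin C, the muscle form of the filamins, which cross-link actin and tie it to membrane and Z-disc proteins. The probe set that kept the groups apart (Bt.14240.1.S1_at) read 58.2, 16.7 and 28.8 in laminitis and 115, 137 and 149 in normal tissue. All 3 laminitis signals lay below every array median and all 3 normal ones above it, so the probe set passed the filter through the normal group alone. The log2 difference was -2.13 ± 0.44 (SE), the lowest of the 13, and with 64 added it was -1.02. The other FLNC probe set (Bt.14240.3.S1_at) read 29.6, 91.7 and 50.3 in laminitis and 45.9, 61.4 and 194 in normal tissue. Its groups overlapped, a single array, normal replicate 4, was high, and the log2 difference of -0.67 ± 0.66 (SE) shrank to -0.045 without it.

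SYNE1 encodes nesprin-1, a giant spectrin-repeat protein that anchors the nucleus to the actin cytoskeleton. It had 3 probe sets, and they differed. The brightest (Bt.10565.1.A1_at) read 183, 86.8 and 139 in laminitis and 329, 402 and 396 in normal tissue. Its normal arrays agreed within 1.22 times and all lay well above the laminitis arrays, at a log2 difference of -1.52 ± 0.30 (SE), or -1.77 to -1.23 with 1 array left out. The next (Bt.22974.1.A1_at) read 184, 190 and 116 in laminitis and 225, 203 and 128 in normal tissue, a difference of -0.17 ± 0.31 (SE). On it replicate 4 was the lowest array of both groups, the groups overlapped, and the difference turned to 0.057 without laminitis replicate 4. The dimmest (Bt.22974.1.S1_at) read 124, 35.7 and 35.4 in laminitis and 28.7, 18.4 and 79.3 in normal tissue, at 0.64 ± 0.71 (SE) and not tested. That value fell to 0.034 without laminitis replicate 1, the single high array. The dimmer pair was designed from 1 sequence entry and the brightest from another, per the platform annotation, so the lower SYNE1 signal rests on 1 of 3 probe sets.

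KCNJ2 is the inward-rectifier potassium channel Kir2.1, which holds the resting membrane potential of muscle and of small vessels. It read 33.9, 78.2 and 40.7 in laminitis and 147.0, 147.8 and 191.7 in normal tissue (Bt.126.1.S2_at). The normal arrays lay above every array median and the laminitis arrays below, so this probe set, too, passed the filter through the normal group alone. The log2 difference was -1.76 ± 0.34 (SE), -2.11 to -1.51 with 1 array left out and -0.99 with 64 added. The normal tissue read 3.38 times the laminitis tissue as a geometric mean, a size that depends on laminitis signals below the middle of the array.

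In whole tissue, fewer smooth muscle cells and less RNA of a gene per cell cannot be told apart. The members' levels in laminitis, as geometric means against normal tissue, were 109% for ACTA2, 123% for MYH11, 56.4% for TAGLN and 54.85% for CNN1. They were 81.25% and 145% for the TPM2 probe sets, 43.7% for DES and 29.6% for KCNJ2. The FLNC probe sets gave 22.8% and 62.9%, and the SYNE1 probe sets 34.8%, 88.8% and 155%. Adding 64 to each signal kept all 13 signs, and the 4 probe sets with groups apart then ran from -1.16 for SYNE1 to -0.79 for TAGLN.

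**Figure D2:**
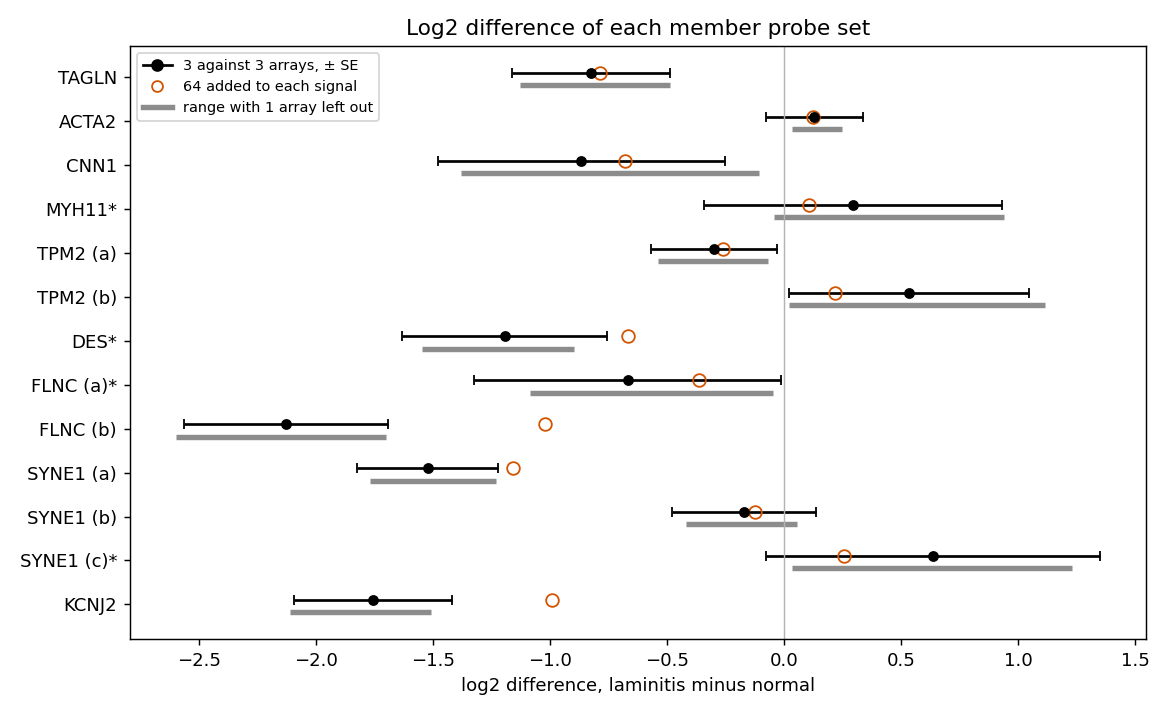
Log2 difference, laminitis minus normal (x axis), of each of the 13 probe sets (y axis; a star marks a probe set that was not tested). Black points with bars give the difference ± SE from 3 against 3 arrays, open circles the value with 64 added to every signal, and grey bars the range with 1 array left out; FLNC (b) moves from -2.13 to -1.02 with 64 added, while ACTA2 stays near 0.

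How the members varied inside the groups was described with the contrast they were chosen on taken out. For this, each group's mean log2 signal was subtracted for the 9 tested probe sets. Among them, the FLNC probe set and KCNJ2 passed the filter through the normal group alone, and their laminitis signals lay below the array medians. Their log2 SD was 0.90 and 0.63 in laminitis against 0.19 and 0.22 in normal tissue. Laminitis replicate 3 was below its group mean on 6 of the 9 and was the lowest laminitis array on the same number. CNN1 lay lowest there, at -1.52, followed by FLNC at -0.86 and the brightest SYNE1 probe set at -0.58. KCNJ2 went the opposite way and was highest on that array, at 0.71. Among the normal arrays, replicate 4 was above its group mean on 7 of 9 probe sets and replicate 2 on 2 of 9.

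Some members followed each other over the 6 arrays after the group means were taken out. As a description over 6 arrays that share those arrays, Pearson's r was 0.97 between FLNC and the brightest SYNE1 probe set, 0.96 between TPM2's brighter probe set and FLNC, and 0.948 between that TPM2 probe set and SYNE1. ACTA2 and CNN1 had r = 0.735. TAGLN and ACTA2 had r = 0.354, and TAGLN and CNN1 0.0879, although all are contractile genes. KCNJ2 ran against CNN1, FLNC, the brighter TPM2 and the brightest SYNE1 probe set, at r from -0.913 to -0.805. With the dimmer TPM2 probe set its r was 0.233, and with the next SYNE1 probe set -0.0104. For FLNC and KCNJ2 these r draw mostly on the laminitis arrays, where both read below the array medians. CNN1, TAGLN, the brighter TPM2 and the brightest SYNE1 probe set also spread wider in laminitis. Their log2 SD was 1.34, 0.64, 0.47 and 0.55 there, against 0.18, 0.20, 0.092 and 0.16 in normal tissue. The dimmer TPM2 (0.10 against 1.10) and the next SYNE1 probe set (0.40 against 0.43) spread wider in normal tissue. Over all 36 pairs of tested probe sets the median r was 0.0732 and 20 pairs were positive. The next brightest SYNE1 probe set had r = -0.25 with the brightest one, and the probe sets of TPM2 had r = -0.0112, so probe sets of a gene did not follow each other.

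The genes nearest to the mean member profile inside the groups were CPSF4, EIF3K, PYCR3, FOSB and ACBD3, with r of 0.998, 0.997, 0.991, 0.99 and 0.984 over 6 arrays. CPSF4 acts in mRNA 3' end processing, EIF3K in translation initiation and FOSB as a transcription factor. The mean took in the FLNC probe set and KCNJ2, which passed the filter through the normal group alone. Pairs of tested member probe sets had a median r of 0.0732, so the mean is not a profile that the members share. A profile of 6 values with both group means removed is matched by many genes, and 35 of 6144 had r over 0.95.

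**Figure D3:**
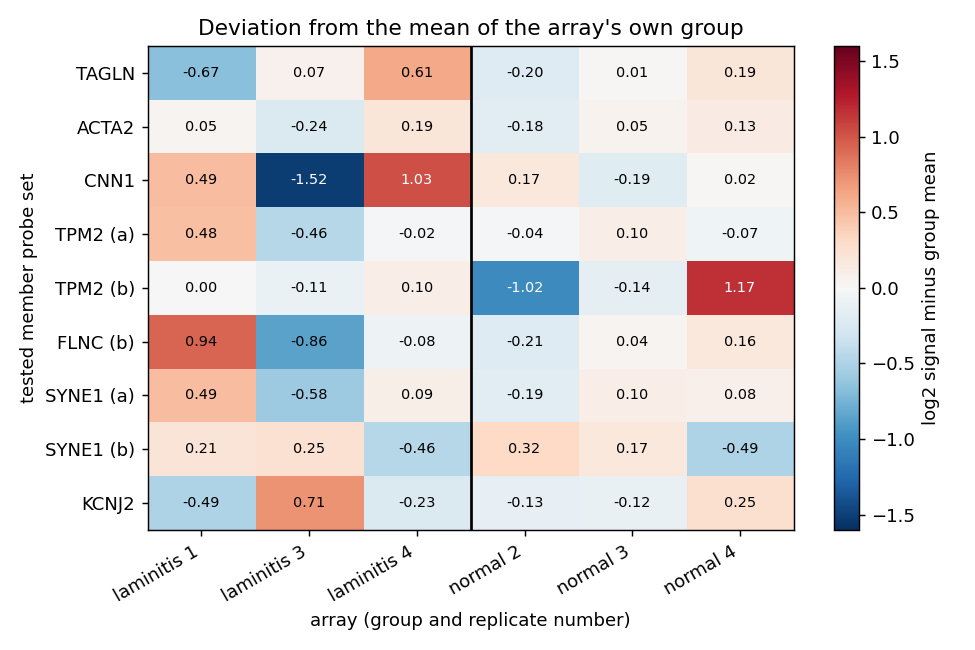
Log2 signal minus the mean of the array's own group (colour and printed value) for the 9 tested member probe sets (rows) on the 6 arrays (columns; the black line parts laminitis from normal). Laminitis replicate 3 is lowest for CNN1 at -1.52 and highest for KCNJ2 at 0.71.

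The other genes of these pathways were taken from 5 lists of textbook members that leave out the 10 genes above. The lists held 110 genes, of which 67 had a probe set and 50 were tested, each through its tested probe set of highest mean. With p adjusted over all tested probe sets, limma called 0 of the 50 higher and 0 lower, and at an unadjusted p under 0.05 it gave 4 higher and 3 lower. The groups were apart with laminitis lower for 6 of the 50 (12%, against 8.36% of all 6151 tested genes) and with laminitis higher for 6 (12%, against 8.7%). Their median log2 difference was -0.14, beside -0.029 over all tested genes. Of the 50, 29 had a negative difference, and over all tested genes 53.6% did, which stands beside the counts for each list below.

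Of 10 tested other contractile genes 0 passed, 6 had a negative log2 difference and the median was -0.14. TPM1, alpha-tropomyosin, read 506, 378 and 296 in laminitis and 260, 182 and 288 in normal tissue, groups that did not overlap, at 0.69 ± 0.28 (SE, limma adjusted p 0.508). Its other probe set gave -0.16. ACTN1, an alpha-actinin that bundles actin, had 0.38 ± 0.25 (limma adjusted p 0.651) and 0.091 after quantile normalization, and HSPB6, a small heat shock protein of muscle, had -0.50 ± 0.33 (limma adjusted p 0.652), or -0.14 without laminitis replicate 4.

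Among 6 tested regulators of contraction, with a median of -0.11, 0 passed. PPP1CB, the catalytic subunit of myosin light chain phosphatase, read 13340, 12530 and 11740 in laminitis and 6332, 7992 and 7786 in normal tissue. All 3 laminitis arrays lay above the normal ones, at 0.77 ± 0.19 (SE, limma adjusted p 0.334), while its other probe sets gave -0.16 and 0.54. After quantile normalization the difference was 0.38. PDE5A, which breaks down the relaxing messenger cGMP, had -0.94 ± 0.42 (limma adjusted p 0.534), and -1.42 and -0.60 without laminitis replicates 3 and 4. SRF, serum response factor, lay below the median on 4 of 6 arrays and was not tested.

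The relatives of the contractile proteins in non-muscle cells had 10 tested genes, of which 0 passed and 7 had a positive difference, with a median of 0.052. CNN3, a calponin of non-muscle cells, read 13150, 14090 and 11870 in laminitis and 9501, 9295 and 8290 in normal tissue, at 0.53 ± 0.18 (SE, limma adjusted p 0.468) and at 0.13 after quantile normalization. ACTB, cytoplasmic beta-actin, read 2178, 2541 and 2133 in laminitis and 1955, 249 and 807 in normal tissue. Its groups did not overlap, the normal arrays were far apart, and the difference was 1.64 ± 0.67 (SE, limma adjusted p 0.507), or 0.86 without normal replicate 3. TAGLN3, a transgelin relative, had -0.80 ± 0.34 (limma adjusted p 0.508).

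Of 16 tested linkers of actin, the cell surface and the nucleus 0 passed, 9 had a negative difference and the median was -0.14. RDX, radixin, which ties actin to the membrane, read 405, 439 and 404 in laminitis and 578, 604 and 891 in normal tissue, at -0.70 ± 0.23 (SE, limma adjusted p 0.445). VIM, the intermediate filament vimentin of mesenchymal cells, read 4813, 2320 and 7018 in laminitis and 7144, 8945 and 11650 in normal tissue, at -1.08 ± 0.42 (SE, limma adjusted p 0.494), or -0.64 without laminitis replicate 3. For both genes every laminitis array lay below every normal one. After quantile normalization the VIM difference was -1.48. LMNA, lamin A, to which nesprins connect through the nuclear envelope, had -1.59 ± 0.78 (limma adjusted p 0.562), with -0.28 by its other probe set, and -2.56 without laminitis replicate 4.

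Of 9 tested channels and calcium-handling genes 0 passed, 7 had a negative difference and the median was -0.235. The calcium pump ATP2A2 had 0.44 ± 0.20 (limma adjusted p 0.535), or 0.16 after quantile normalization. Its other probe sets gave 0.52, 0.26 and -0.47. The cation channel TRPC1 had -0.37 ± 0.22 (limma adjusted p 0.626). KCNJ8, the inward rectifier Kir6.1 of vascular muscle and a relative of KCNJ2, read 64.9, 85.7 and 98.2 in laminitis and 82.0, 133 and 122 in normal tissue, at -0.43 ± 0.27 (SE, limma adjusted p 0.638).

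**Figure D4:**
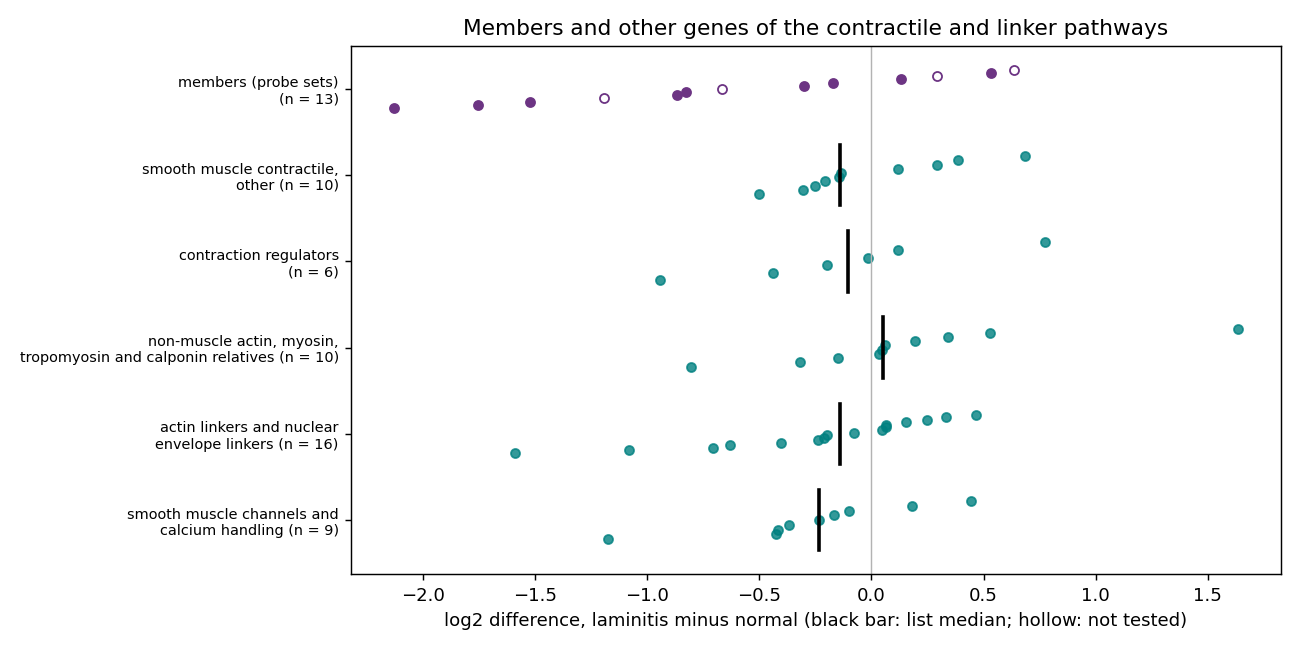
Log2 difference, laminitis minus normal (x axis), of the 13 member probe sets (top row; hollow points were not tested) and of the tested genes of the 5 other pathway lists (1 point per gene, y axis gives the list). Black bars are list medians, which run from -0.235 to 0.052.

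Markers of other cells were measured on the same arrays, and their part in the member values was not tested. In 9 marker lists 53 genes were tested, and limma called 0 higher and 0 lower, with 2 higher and 4 lower at an unadjusted p under 0.05. No signal on any array was 0. The counts of negative differences below stand beside 53.6% negative over all 6151 tested genes. Signals summed over the 7 pericyte genes on the array ran from 997 to 1218 in laminitis and from 1175 to 1347 in normal tissue. All 5 tested genes had a negative difference, with KCNJ8 as above and PDGFRB at -0.18. The untested RGS5 and ANPEP lay below the median on all 6 arrays and differed in sign. They had 0.52 ± 0.72 and -0.44 ± 0.23 (SE). The sum over 17 skeletal muscle genes ran from 2756 to 3218 and from 3020 to 3236, with 6 of 11 tested genes negative, MYL1 at -0.52 and MB at -0.21. The sum over 13 endothelial genes ran from 1116 to 1422 and from 1202 to 1582, with 6 of 7 negative, ROBO4 at -0.52 and EMCN at -0.15. For 11 fibroblast genes it ran from 9219 to 30980 and from 10040 to 32220, with 5 of 10 negative, DCN at -1.61 and MFAP4 at -0.58.

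The keratinocyte sum over 7 genes ran from 1476 to 2283 in laminitis and from 1064 to 1850 in normal tissue, with 2 of 6 negative, ITGB4 at 1.29 and KRT14 at 0.60, or 0.76 and 0.0040 without normal replicate 4. The sum over 4 Schwann cell genes ran from 792 to 1059 and from 877 to 1061, with 3 of 4 negative, L1CAM at -0.38 and S100B at -0.31. For 4 red blood cell genes it ran from 190 to 246 and from 187 to 213, with HBG at -0.095. The sums of 2 lists kept the groups apart through a few genes. Over 5 adipocyte genes the sum ran from 218 to 256 in laminitis and from 289 to 360 in normal tissue, with FABP4 as the 1 tested gene at -0.88 and its other probe set at 0.034. Without FABP4 the sum ran from 142 to 196 and from 169 to 188 and overlapped. Over 11 neutrophil and macrophage genes it ran from 2068 to 14000 and from 1229 to 1741, with 4 of 8 negative, S100A9 at 4.52 and S100A8 at 4.37. Without S100A8 and S100A9 the sum ran from 803 to 1295 in laminitis and from 1076 to 1121 in normal tissue and overlapped. Without S100A12 as well it was lower in laminitis, at 774 to 993 against 1067 to 1114. The genes left out of these sums, FABP4 included, were picked with their values known. ELANE at -1.05 and MPO at -0.44, both neutrophil granule enzymes, lay lower on every laminitis array than on any normal one. ELANE read 37.7, 84.2 and 71.1 in laminitis, below the array medians, and 152, 125 and 105 in normal tissue, above them. It thus passed the filter through the normal group alone, and nothing is read from its place in the count of genes apart. MPO's other probe set gave 0.17. Of the 8 tested genes of this list 2 were apart with laminitis lower and 2, S100A8 and S100A9, with laminitis higher. Over all tested genes these shares were 8.36% and 8.7%. MSR1, whose limma p was smaller than that of MPO, had 0.59 with overlapping groups, and -0.86 and -0.73 by its other probe sets. As a sign of RNA integrity, the ratio of the 3' to the 5' GAPDH control ran from 4.06 to 9.70 in laminitis and from 5.51 to 6.87 in normal tissue, and that of the actin control from 4.71 to 6.62 and from 2.08 to 6.25. Both ratios were highest on laminitis replicate 1, where TAGLN and KCNJ2 had their lowest signals, while FLNC (its probe set with groups apart) and the brightest SYNE1 probe set had their highest laminitis signals there. That array lay above its group mean on 7 of the 9 tested member probe sets.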

How the data were processed

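Total RNA of 6 lamellar samples was primed with oligo(dT), amplified once into biotin-marked cRNA and hybridised, 1 array a sample, per the labels' protocols. The file deposited holds a linear intensity for every probe set on each array, with a mean after trimming 2% at each end of 150.02 or 150.03 throughout. The submitters' processing notes name GCRMA, version not given, which does not yield such linear intensities, so the step that made the deposited values, and any scaling by the authors, is open. Of 24128 probe sets 112 controls were left out.

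Signals were log2-transformed, no offset added. Laminitis and normal tissue were compared with limma (version 3.58.1, R version 4.3.3; lmFit, eBayes), using two-sided p-values adjusted over the 12519 tested probe sets. Standard errors of untested probe sets come from a fit without the filter. Simulated data were used only to check that the fit returned, on average, the log2 differences put in. How often such differences were called is not reported here. The number of arrays limits the precision. Any limma p sets a group difference against the spread between these samples, moderated over all tested probe sets. No pair of arrays shared any identical value.

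The members, lists and settings were chosen with earlier results of these data known. Every member probe set is named, with the 2 or 3 genes of smallest p in each list (1 where 1 was tested) and the 5 genes nearest to the mean member profile inside groups. LMOD1, MYLK, CALD1 and SRF, from the same lists, were named as markers or regulator, not by their p. MPO, MSR1 and S100A12, from the neutrophil and macrophage list, were also named outside that rule, with their values known. The same holds for RGS5 and ANPEP, from the pericyte list. Alternatives were 2 filters, 2 offsets, quantile normalization, median centring, 2 other variance models, array weights, the replicate number as a block and each array left out.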

Additional observations from a re-analysis of the deposited data

How the results depend on the processing

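Results were recomputed under 16 alternatives, 6 of which leave out 1 array. The number of probe sets called by limma was 4 with an intensity trend and robust variance, 0 to 2 with 1 array left out (2 without laminitis replicate 4), and 0 otherwise. No alternative called any of the 50 other pathway genes that it tested. The median over the 13 member probe sets was -0.36 with 64 added, -0.38 with array weights, and -0.82 to -0.30 with 1 array left out, the last without laminitis replicate 3. ACTA2 turned to -0.071 after quantile normalization. Differences within their SD also changed sign, namely 1 SYNE1 probe set without laminitis replicate 4 (0.057), another under the replicate block (-0.10), and MYH11 without 1 array in 2 cases. Among markers EMCN ran from -0.53 to 0.45 with 1 array left out (0.071 without normal replicate 3), and HBG from -0.29 to 0.031. The cause of these shifts was not tested.

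Replicate numbers 3 and 4 occur in both groups. Deviations from the group means correlated at -0.0167 between the arrays numbered 3 and at -0.031 between those numbered 4, so the numbers were not taken to pair samples. With the replicate number as a block limma called 0 probe sets and the member median was -0.59. Detection calls were not used here, so folds of members dim in laminitis (FLNC, KCNJ2) depend on background.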

Other observations

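Of the pathway genes below the filter, which were not tested, 2 are given here because their values stood out when seen. FHL1, a LIM-domain protein of muscle, read 18.3, 10.3 and 54.2 on laminitis replicates 1, 3 and 4 and 84.7, 146 and 107 on normal replicates 2, 3 and 4. Every laminitis array lay below every normal array, at a log2 difference of -2.34 ± 0.62 (SE, n = 3 per group). SMTN, smoothelin, a marker of contractile smooth muscle, read 20.7, 194 and 146 in laminitis and 51.4, 25.0 and 24.2 in normal tissue, at 1.41 ± 0.87 (SE). Its laminitis replicate 1 lay below all normal arrays, so the groups overlapped.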
